A study of Drosophila melanogaster with 14 samples.

Results

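The 60 genes described here encode proteins of the cytoplasmic ribosome of Drosophila melanogaster, and they were taken as a fixed list of gene identifiers of RpL and RpS genes, not by their measured values. They are 60 of the 13781 genes of the deposited table. Of these, 38 encode proteins of the large (60S) subunit, the stalk proteins RpLP0, RpLP1 and RpLP2 among them, and 22 encode proteins of the small (40S) subunit, including sta, which encodes RpSA. The list is not complete: 19 further cytoplasmic ribosomal protein genes and 14 second copies or -like genes of the same table were kept apart and are given only for comparison.

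The small ribosomal subunit reads the codons of the messenger RNA, and the large subunit joins the amino acids and recruits elongation factors through its stalk. Since the particle holds its proteins in fixed proportions, the genes are transcribed together at very high levels in growing tissue, and in flies a reduced dose of many of them gives the Minute phenotype of slow development and thin bristles. Their messengers are short, so that any step of library preparation that depends on transcript length acts on nearly all of them at once.

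The study used mRNA-Seq to follow embryos that lack the paired zinc finger genes salm and salr through the degeneration of their nervous system and its partial reversal. Oregon R embryos served as the wild type (WT). Homozygous embryos (Ho) carried the deficiency Df(2L)32FP-5 on both chromosomes and came from a stock that keeps it over CyO-GFP, and heterozygous embryos (He, the same deficiency over +) came from females of that stock mated to white males. Both were picked as embryos without GFP, so that genotype and strain background cannot be told apart. Stage 16 (16 in a library's name, 13 to 14 hours of development) and stage 17 (17 in the name) were each covered by 2 WT, 2 He and 3 Ho libraries from pools of 50 whole embryos. Each WT and He condition has a library c and a library ab, the latter joining technical replicates of experiments a and b, whereas the Ho experiments a, b and c were each deposited on their own. A stage field of the labels gives stage 16 for all 14 libraries, and the stage of each library was taken from its title.

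The deposited values are a variance-stabilized transformation of normalised read counts, from which whole reads were recovered for every gene and library. Depth ran from 4760306 reads in Ho16a to 23213638 in WT17c, and Ho16b, with 6042900, came next. The least covered member, RpL38, still had 1127 reads in the library where it was lowest, so all 60 genes passed the filter on low values that left 11584 genes for testing. The deleted genes checked the labels: salm had 768 to 2651 reads in each WT and He library and 0 to 96 in each Ho library. The 3 Ho16 libraries stand apart from each other. The neuronal markers elav, nSyb and Syt1 summed to 101 CPM (recovered reads scaled to an equal library total) in Ho16a against 347 in Ho16b, 743 in Ho16c and 375 to 676 in the WT16 and He16 libraries. The muscle markers Mhc, Act57B and Tm2 summed to 10879.6 CPM in Ho16a, 13731 in Ho16b, 17635 in Ho16c and 14459.6 to 19314 in the WT16 and He16 libraries, and none of these 6 genes was at 0 in any library. The glial markers repo and moody summed to 53.6 CPM in Ho16a, 103 in Ho16b, 149 in Ho16c and 89.6 to 121 in the WT16 and He16 libraries. The hemocyte markers Hml and Pxn summed to 234, 176 and 161 CPM in Ho16a, Ho16b and Ho16c (183 to 249 in WT16 and He16), and the fat body markers Lsp2 and Fbp1 to between 0.877 and 7.83 CPM in every stage 16 library. Hml, Lsp2 and Fbp1 were at 0 in at least 1 library. Across the Ho16 libraries the neuronal, glial and muscle sums thus ran in the opposite order to the members and the hemocyte sum in the same order. Not every gene followed its sum: Mhc, at 5788, 5219 and 5118 CPM in Ho16a, Ho16b and Ho16c, ran in the members' order. The hemocyte order was that of Pxn, since Hml had 0, 3 and 0 reads. The midgut marker Jon65Aiii, at 20.8, 8.94 and 7.06 CPM, also ran in the members' order. The part of these markers in the results was not tested. In whole embryos, fewer cells of a type and less RNA per cell cannot be told apart. The median transcript length was 2553.5 bases for the neuronal, 2987 for the glial, 1724 for the muscle and 8440 for the hemocyte markers. The Ho16 libraries also differ by transcript length, as described below, and how far this enters into the sums was not tested.

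The 60 genes took up 6.13% to 27.0% of all reads of a library, and the widest differences in this share lay between libraries of the same condition. At stage 16 it was 12.3% in WT16ab and 9.39% in WT16c, 11.7% in He16ab and 7.73% in He16c. The Ho16 libraries spread to both sides of these values, with 27.0% in Ho16a, 14.2% in Ho16b and 6.13% in Ho16c, the highest and the lowest share of the series lying in the same condition. At stage 17 the share was 11% in WT17ab and 8.30% in WT17c, 11.6% in He17ab and 8.85% in He17c, and 9.27%, 9.48% and 8.78% in Ho17a, Ho17b and Ho17c. The Ho17 libraries were the closest group (9.18% ± 0.357, SD, n = 3), against 15.8% ± 10.5 (SD, n = 3) in Ho16. The 95% exact binomial (Clopper-Pearson) interval of each share is narrow at these depths, for example 26.99% to 27.07% in Ho16a, and covers counting error only. In each WT and He condition the ab library lay above the c library, and the WT, He and Ho ranges of stage 17 overlapped, as did those of stage 16.

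**Figure D1:**
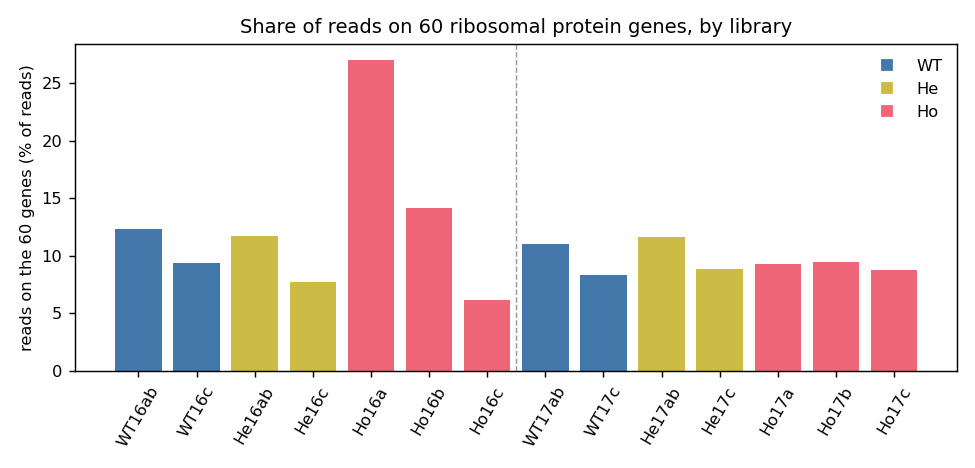
Percent of the recovered reads of each library that fall on the 60 ribosomal protein genes (bars, 1 per library, coloured by genotype; stage 16 left and stage 17 right of the dashed line). Ho16a stands at 27.0% and Ho16c at 6.13%, while the Ho17 libraries lie between 8.78% and 9.48%.

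The balance between the subunits stayed narrow while the total moved. Large-subunit genes took 62.7% of the members' reads in Ho16a and 58.6% in Ho16c, and between 61.1% and 64.9% in the other 12 libraries. Among the 100 genes with most reads of a library, 54 were members in Ho16a and 17 in Ho16c, against 30 to 53 in the other libraries.

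Levels per length were compared as CPM per kilobase of the gene's median annotated transcript, taken as the median over the 14 libraries. They ranged from 192 to 4446 CPM per kilobase, with quartiles of 1553 and 2427. The highest level was that of RpLP2 (CG4918), a protein of the acidic stalk that binds elongation factors, at 4446 CPM per kilobase, and RpL23, at 3287, was also among the highest. Over the libraries RpLP2 ranged from 2986 to 18505 and RpL23 from 1779 to 11629 CPM per kilobase. These ranges overlap, but they share the spread between libraries and do not give the order within each library. The lowest levels were those of RpL38 (CG18001), at 192 CPM per kilobase (range 106 to 765), RpL30 (CG10652) at 975 (335 to 2978) and RpS20 (CG15693) at 1079.6 (554 to 1764). RpL38, a small protein of the large subunit whose gene lies in the pericentric heterochromatin of 2R, was thus the outlying member, and even its highest library lay below the median level of RpL30. Both subunits had close medians, 1900.3 CPM per kilobase for the large and 1962 for the small. The shortest transcripts were those of RpL39 and RpL31 (288 and 522 bases) and the longest those of RpL5, RpL3 and RpL4 (1512, 1496 and 1400 bases), with a median over the members of 764 bases against 1839 over all tested genes.

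**Figure D2:**
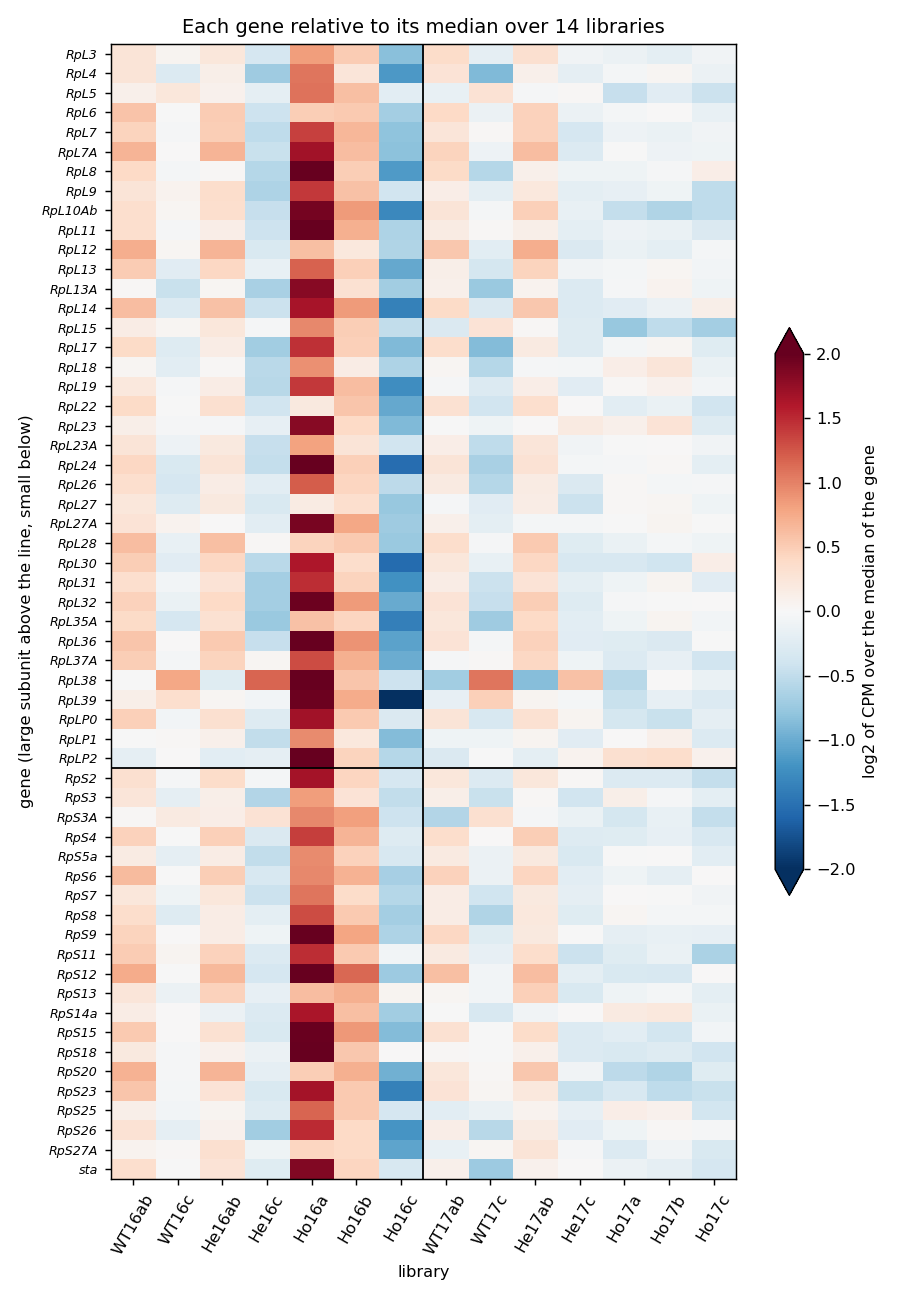
Log2 of the CPM of 58 of the 60 genes (rows, large subunit above the line and small subunit below) over its own median of the 14 libraries (columns, stage 16 left of the line), with colours saturating at 2 in either direction. The Ho16a column is red for nearly every gene and the Ho16c column blue, whereas the Ho17 columns are pale.

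The libraries of the Ho16 condition were compared with each other because the members are short. Every member had more CPM in Ho16a than in Ho16c, by 1.48-fold to 15.6-fold with a median of 4.27-fold, and Ho16b lay above Ho16c for all 60 as well (median 2.49-fold). Against the median of the 4 WT16 and He16 libraries, Ho16a was higher for all 60 genes (median 2.41-fold), Ho16b for 59 (median 1.35-fold), and Ho16c was lower for all 60 (median 0.548 of that level). Of the 60 genes, 53 had their highest CPM of the series in Ho16a and 42 their lowest in Ho16c.

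The size of this difference was uneven among the members. RpL8 (CG1263), which sits beside the peptidyl transferase centre, was at 11549, 3467 and 1119 CPM in Ho16a, Ho16b and Ho16c, and at 3236 and 2381 in WT16ab and WT16c and 2489.5 and 1648 in He16ab and He16c. RpL24 (CG9282), a protein at the interface of the subunits, was at 6530.0, 1821 and 456 CPM in the Ho16 libraries against 1737 and 1056 in WT16. RpL39 (CG3997), the shortest transcript, was at 1736, 749 and 111 CPM in the Ho16 libraries against 483 and 564 in WT16, the widest span of all members (15.6-fold). For these genes the Ho16 libraries lay on both sides of the WT16 libraries. By contrast RpS13 (CG13389), a protein of the small subunit, was at 1851, 1988 and 1251 CPM in Ho16a, Ho16b and Ho16c and 1431 and 1115 in WT16, the narrowest span from the lowest to the highest of these libraries (1.59-fold). RpL22 (CG7434), which in flies carries a long histone-like amino terminus, was at 1711, 2189 and 737 CPM against 1944 and 1486, and RpL27 at 1496, 1692 and 795 against 1572 and 1119. On the CPM scale Ho16a lay above each of the 4 WT16 and He16 libraries in 54 members, the exceptions being RpL6, RpL12, RpL22, RpL27, RpL28 and RpS20, named here after their values were seen. On the deposited scale the difference of Ho16c from the mean of Ho16a and Ho16b was negative in all 60 genes. It was largest for RpL39 (-4.18), RpL30 (-3.08) and RpL24 (-3.04), and nearest 0 for RpS13 (-0.73), RpL23A (-0.88) and RpL5 (-1.07).

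Over all tested genes, too, the difference between these libraries went with transcript length. On the log2 scale of size-factor normalised reads with 1 added, the median difference of Ho16a from Ho16c over all tested genes was 1.58 for 604 genes with transcripts under 600 bases, 1.48 for 1115 genes of 600 to 900 bases and 1.21 for 2601 genes of 900 to 1500 bases. It was 0.29 from 1500 to 3000 bases, -0.75 from 3000 to 6000 and -1.41 above 6000, so that it changed sign along the length scale. The members' own medians were 2.92 for the 10 under 600 bases, 2.76 for the 31 of 600 to 900 and 2.25 for the 18 of 900 to 1500, each above the median of all tested genes in the bin. Among genes with a mean deposited value of 11 or more that are no ribosomal protein genes, the median was 1.13 for 17 genes of 600 to 900 bases and 0.66 for 62 genes of 900 to 1500 bases, also under the members. The 6 such genes under 600 bases had a median of -0.24, against the direction of the relation to length. Within the 60 genes the relation to length was weak (Spearman's rho -0.23 between length and the fold of Ho16a over Ho16c, across 60 genes of the same pair of libraries). Their transcripts span only 288 to 1512 bases. Over all 11481 tested genes with a length, rho was -0.43. Over the 581 genes with a mean deposited value of 11 or more, ribosomal protein genes included, rho was -0.65. Genes are not independent replicates, and these correlations are descriptions. The share of the members' difference that goes with transcript length was not tested.

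**Figure D3:**
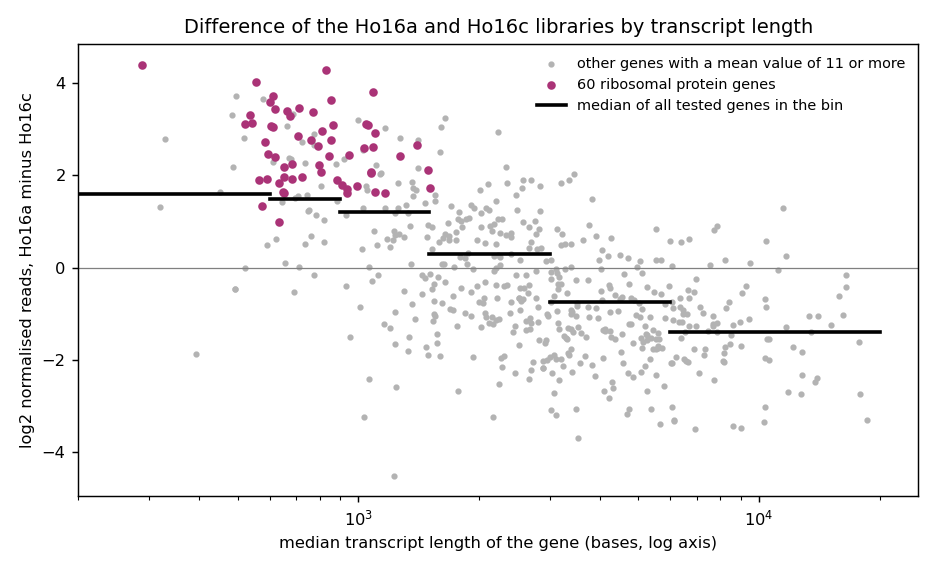
Difference of Ho16a and Ho16c in log2 normalised reads (vertical axis) against the median transcript length of the gene in bases (horizontal log axis), for the 60 ribosomal protein genes (purple) and other genes with a mean deposited value of 11 or more (grey). The black bars give the median of all tested genes per length bin, falling from 1.58 under 600 bases to -1.41 above 6000 bases, and most purple points lie above them.

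Measured against the mean of all 14 libraries, short transcripts lay above it in Ho16a and below it in Ho16c. Tested genes of 600 to 900 bases had a median deviation of 0.83 in Ho16a, 0.16 in Ho16b and -0.76 in Ho16c, and those above 6000 bases -1.26, -0.42 and 0.21. Members of 600 to 900 bases deviated by 1.81, 0.22 and -0.87 in the same libraries. In the Ho17 libraries the same members deviated by -0.11, -0.00753 and -0.093. From the mean of the Ho16 libraries alone, the members of this length deviated by 1.45 in Ho16a, -0.13 in Ho16b and -1.30 in Ho16c.

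Other short transcripts and other parts of the translation machinery were read beside the members. On the scale of size-factor normalised reads, 19 of the 19 further cytoplasmic ribosomal protein genes lay in Ho16a above all 4 WT16 and He16 libraries, as did 60 of 60 members, 70 of 73 mitochondrial ribosomal protein genes and 61 of the 69 tested respiratory chain genes, against 39.4% of all tested genes. In Ho16c, 46 of 60 members lay below those 4 libraries, with 14 of the 19 further genes, 37 of 73 mitochondrial ribosomal protein genes, 29 of 69 respiratory chain genes and 37.5% of all tested genes. The median difference of Ho16a from Ho16c in log2 normalised reads was 2.52 for the members, 1.90 for the mitochondrial ribosomal protein genes, 1.94 for the respiratory chain genes, 0.76 for 7 elongation factor genes, whose median transcript is 1685 bases long, and 0.21 for all tested genes.

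The 2 libraries of each WT and He condition also differed in the members. In WT16 54 of 60 members had more CPM in ab than in c (median 1.35-fold), in He16 57 (1.55-fold), in WT17 51 (1.31-fold) and in He17 55 (1.33-fold). On size-factor normalised reads, 54, 57, 53 and 53 members were lower in c in WT16, He16, WT17 and He17. Of all 11584 tested genes, 6042, 6061, 6157 and 6207 were lower in c in the same order. On the deposited scale, the differences of c from ab in the 60 genes were alike across the 4 conditions. Pearson's r was 0.62 to 0.89 between any pair of these conditions, against 0.15 to 0.34 over all tested genes. RpL38, which lay far above the other members in all 4, is included, and r without it was not computed. These correlations are descriptions over 60 genes that share their libraries. In all, 48 members were higher in ab in all 4 conditions, and 2 were higher in c in all 4.

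RpL38 and RpLP2 were the genes that went against the others. RpL38 was at 136 and 232 CPM in WT16ab and WT16c, 116 and 306 in He16ab and He16c, 83.7 and 285 in WT17ab and WT17c and 75.2 and 204 in He17ab and He17c, so that c exceeded ab by 1.71-fold to 3.40-fold in every condition. RpLP2 was at 2363 and 2687 CPM in WT16ab and WT16c and at 2196 and 2684 in WT17ab and WT17c, with smaller ratios of c over ab of 1.03-fold to 1.22-fold. RpS3A (CG2168), the member on chromosome 4, and RpL5 (CG17489), which carries 5S rRNA into the large subunit, were higher in c in 3 of 4 conditions. In WT17, for instance, RpS3A was at 939 and 1760.3 CPM and RpL5 at 1646 and 2240.0 in ab and c. RpL39 was higher in c in 2 conditions and 7 other members in 1. RpS3A and RpL5 are described here after their values were seen.

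**Figure D4:**
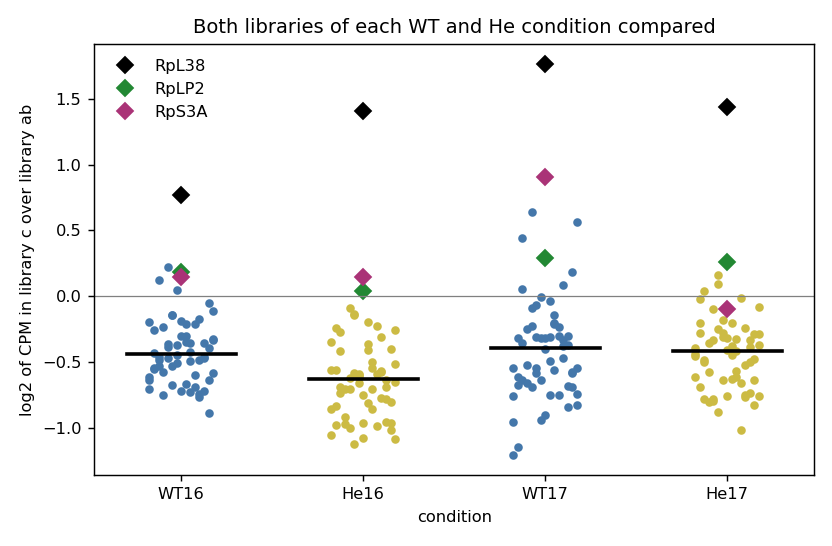
Log2 of the CPM in library c over library ab for each of the 60 genes (points) in the WT16, He16, WT17 and He17 conditions, with the median as a black bar and RpL38, RpLP2 and RpS3A as diamonds. Most points lie below 0, RpL38 (black) lies above 0 in every condition, RpLP2 (green) lies just above 0 and RpS3A (purple) lies above 0 in 3 of 4.

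The genotype comparisons were tested with limma on the deposited values, with an adjusted p under 0.001 as the threshold. The study used this threshold with DESeq and reported far more genes in Ho against WT at each stage. The fit here called 1 of 11584 tested genes in Ho16 against WT16 and 1 in Ho17 against WT17. A count of 0 members is thus near the share of all tested genes. A difference on the deposited scale is not a plain log2 fold change: 1 doubling of normalised reads is worth 1.07 units between the values of 13 and 14 and 0.94 between 14 and 15, where most members lie, and 1.24 between 11 and 12. At stage 17, where the Ho libraries are close to each other, 0 of 60 members passed the threshold in Ho17 against WT17 (0.00863% of all tested genes passed), in Ho17 against He17 (0%) or in He17 against WT17 (0%). No member had an unadjusted p under 0.05 in any of these comparisons, against 8.15%, 4.96% and 2.53% of all tested genes, and the other tools run, limma on log2 reads and limma with precision weights on the recovered reads, also called 0. The lowest adjusted p over the members was 0.812 in Ho17 against WT17. The spread in this fit is shared by all conditions and so holds that of the Ho16 libraries. Fitted on the libraries of the compared conditions alone, 4 members in Ho17 against WT17 and 3 in Ho17 against He17 had an unadjusted p under 0.05 from limma, where 12.0% and 9.6% of all tested genes did, with lowest adjusted p-values of 0.367 and 0.463. Without Ho16a and Ho16c these counts were 4 (16.8% of all tested genes) and 2 (11.1%), with lowest adjusted p-values of 0.168 and 0.405 from limma. The median member difference was -0.18 on the deposited scale in Ho17 against WT17 (26 higher and 34 lower, median of all tested genes -0.036), -0.17 in Ho17 against He17 (17 higher, 43 lower, all genes -0.026) and 0.035 in He17 against WT17 (35 higher, 25 lower, all genes -0.017). The first 2 share the Ho17 libraries. Between the libraries of a condition, the members' median had an SD of 0.38 in WT17 and 0.26 in He17 (n = 2 each) and of 0.064 in Ho17 (n = 3), against 1.19 in Ho16 (n = 3). Leaving out WT17ab turned the median of Ho17 against WT17 to 0.12, and leaving out He17ab that of Ho17 against He17 to 0.085. For He17 against WT17 the median was -0.25 without WT17c and -0.12 without He17ab.

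RpLP2 stood highest among the stage 17 differences. It was at 2196 and 2684 CPM in WT17, 2348 and 2813 in He17 and 3354, 3437 and 2850.2 in Ho17. Every Ho17 library lay above every WT17 and He17 library, the only member for which this held, where 13.4% and 12.4% of all tested genes did so. Its deposited value was 14.83 ± 0.077 (SD, n = 2) in WT17 against 15.16 ± 0.12 (SD, n = 3) in the Ho17 libraries. This gave a difference of 0.33 (standard error 0.53, adjusted p = 0.977 from limma).

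RpS20, a small-subunit protein of the head, stood lowest. It was at 714 and 619 CPM in WT17, 886 and 580.0 in He17 and 424, 403 and 513 in Ho17, without overlap of Ho17 with either. Its difference was -0.69 (standard error 0.58, adjusted p = 0.876 from limma) against WT17 and -0.77 (standard error 0.58, adjusted p = 1 from limma) against He17. RpL10Ab (CG7283), part of the L1 stalk of the large subunit, was at 1618 and 1309 CPM in WT17, 1874 and 1212 in He17 and 969, 890.0 and 945 in Ho17, a difference from WT17 of -0.67 (standard error 0.73, adjusted p = 0.939 from limma). RpL15 (CG17420), named after its values were seen for its low p, was at 1283 and 1892, 1599 and 1309.6 and 932, 1110.0 and 984 CPM in the same order, a difference from WT17 of -0.66 (standard error 0.44, adjusted p = 0.812 from limma). None of these differences passed the test. Counted on the deposited scale, 11 members had every Ho17 library below every WT17 library (15.8% of all tested genes did) and 12 below every He17 library (14.2%), so the members' counts of 11 and 12 in 60 are shares near those of all tested genes. In He17 against WT17 0 members had separate ranges in either direction (15.8% of tested genes lay above and 16.5% below). The largest differences there were 0.33 (standard error 0.72, adjusted p = 1 from limma) for RpL35A and -0.46 (standard error 1.07, adjusted p = 1 from limma) for RpL38. Both lie within the span between the ab and c libraries: RpL35A was at 1385 and 717 CPM in WT17ab and WT17c and 1561 and 1023 in He17ab and He17c, and both differences turn sign when WT17c is left out. Library by library, however, RpL35A was higher and RpL38 lower in He17 than in WT17 both in ab and in c.

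**Figure D5:**
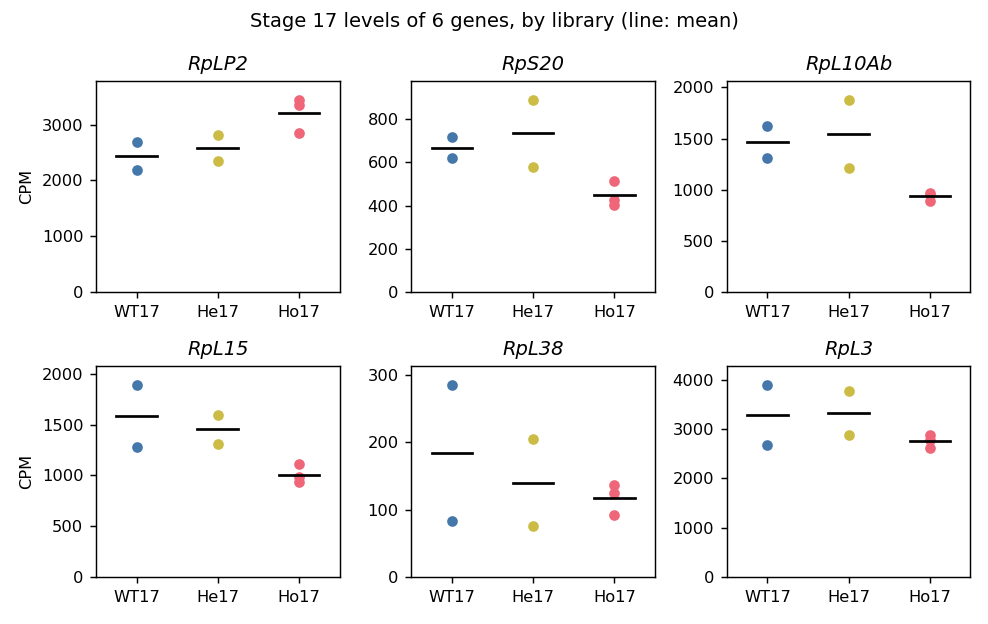
CPM of 6 members in each stage 17 library (points) with the mean of the condition (line), on axes that start at 0. The Ho17 points of RpLP2 lie above, and those of RpS20, RpL10Ab and RpL15 below, the WT17 and He17 points, whereas RpL38 and RpL3 overlap.

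At stage 16, 0 of 60 members passed the threshold in He16 against WT16 (0.00863% of all tested genes), Ho16 against WT16 (0.00863%) or Ho16 against He16 (0%), and 0 had an unadjusted p under 0.05 (1.23%, 6.61% and 6.47% of all tested genes); limma on log2 reads and with precision weights also called 0. The median member difference in Ho16 against WT16 was 0.35 on the deposited scale, with 53 members higher and 7 lower (all genes -0.10). It rested on single libraries: without Ho16a it was -0.30 (7 higher), without Ho16c 0.90 (60 higher, 29 with an unadjusted p under 0.05 from limma, as were 20.6% of all tested genes in that fit) and without both 0.32 (59 higher), where Ho16b is the lone Ho16 library and is assumed to vary like the others. Against He16 the median was 0.52 (58 higher, all genes -0.13), -0.053 without Ho16a, 1.07 without Ho16c (49 members and 25.2% of all tested genes with an unadjusted p under 0.05, lowest adjusted p = 0.0784 from limma) and 0.51 without both. Both comparisons use the same Ho16 libraries.

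Single members at stage 16 spread widely among the Ho16 libraries. RpS18 (CG8900), which lies in the head of the small subunit, was at 1731 and 1495 CPM in WT16, 1605 and 1399 in He16 and 6203, 2209 and 1528 in Ho16, a difference from WT16 of 0.81 (standard error 0.50, adjusted p = 0.797 from limma). On the deposited scale it was the only member whose Ho16 libraries all lay above the He16 libraries (7.95% of all tested genes did), whereas by CPM Ho16c lay below He16ab, and no member did so against WT16 (8.5%). No member had all Ho16 libraries below WT16 (10.8% of all tested genes did) or below He16 (10.3%). RpS12 (CG11271), a small-subunit protein of the beak, was at 1193 and 711 CPM in WT16, 1112 and 567 in He16 and 4225, 1570.4 and 432 in Ho16, a difference from He16 of 0.97 (standard error 0.81, adjusted p = 0.739 from limma), and its Ho16 libraries lay on both sides of both other groups. The lowest difference from WT16 was that of RpL12 (CG3195), a protein at the base of the stalk, at -0.18 (standard error 0.55, adjusted p = 0.952 from limma), and from He16 that of RpL28 at -0.062 (standard error 0.50, adjusted p = 0.975 from limma). RpL12 was at 1395, 1059 and 606 CPM in Ho16 against 1527 and 945 in WT16, within the range of the other genotypes in Ho16a and Ho16b.

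In He16 against WT16 the median was -0.23, with 5 members higher and 55 lower (all genes 0.013), and it turned to 0.10 without He16c and was -0.52 without He16ab. Leaving out either library sets ab and c unevenly against each other. By letter, the members' median deviation from the mean of all 14 libraries was 0.017 in He16ab against 0.16 in WT16ab. It was -0.59 in He16c against -0.29 in WT16c. The lowest difference was that of RpL8, -0.45 (standard error 0.74, adjusted p = 1 from limma), and the highest that of RpS3A, 0.083 (standard error 0.49, adjusted p = 1 from limma). On the deposited scale both He16 libraries lay below both WT16 libraries in 6 members (17% of all tested genes did), among them RpL5, RpL39 and RpLP2, the last of which overlapped by CPM, and in 0 above (17.3%).

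Between the stages, the comparisons called many genes but none of the members. 0 of 60 passed the threshold in WT17 against WT16, where 3.37% of all tested genes did, in He17 against He16 (2.99%) or in Ho17 against Ho16 (7.96%), and 0 had an unadjusted p under 0.05 (24.3%, 21.6% and 38.4% of all tested genes). Limma on log2 reads gave 0 members with an unadjusted p under 0.05 in these comparisons. Limma with precision weights gave 3 in Ho17 against Ho16, where 37.5% of all tested genes had one, and 0 in the others. After scaling by total reads there were 4 in Ho17 against Ho16 (38.2% of all tested genes). In WT the median difference was 0.10 with 57 members higher and 3 lower (all genes 0.035), but with scaling by total reads it was -0.17 with 1 higher (all genes -0.22), and with a length trend removed -0.10 with 10 higher (all genes -0.11). Relative to the median of all genes the members' median in WT thus differed by less than 0.1 under each scaling. In He the median was 0.36 with 58 higher (all genes 0.0065), and 0.065 with 47 higher when scaled by total reads (all genes -0.24). It was 0.078 without He16c and 0.66 without He16ab. In Ho the median was -0.26 with 7 higher and 53 lower (all genes 0.12), and -0.49 with 2 higher when scaled by total reads (all genes 0.0039). On the deposited scale it was 0.31 with 47 higher without Ho16a, -0.91 with 0 higher without Ho16c, and -0.25 with 10 higher without both. Without Ho16c, 21 members and 41.3% of all tested genes had an adjusted p under 0.05 from limma (with all libraries 0 members and 27.1% did), the lowest being 0.00416 for RpL10Ab, and 0 passed 0.001.

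Among single members, RpS5a (CG8922), of the small-subunit head, had the highest stage difference in WT, from 1599 and 1250.2 CPM in WT16 to 1614 and 1311 in WT17, 0.33 (standard error 0.49, adjusted p = 0.783 from limma). The lowest was that of sta, from 3929 and 3119 to 3359 and 1893 CPM, -0.18 (standard error 0.55, adjusted p = 0.915 from limma). The stages overlapped in both genes. In 4 members, RpL5, RpLP1, RpLP2 and RpS27A, which encodes a ubiquitin fusion, both WT17 libraries lay above both WT16 libraries on the deposited scale (33.5% of all tested genes did), and in 0 below (28.4%). In He 17 members lay above (33.8%) and 0 below (29.9%). RpL35A had the highest difference in He, 0.63 (standard error 0.72, adjusted p = 0.715 from limma), and RpL38 the lowest, -0.42 (standard error 1.07, adjusted p = 0.894 from limma). In Ho, RpS12 went from 4225, 1570.4 and 432 CPM in Ho16 to 577, 573 and 712 in Ho17. Its difference was -1.04 (standard error 0.72, adjusted p = 0.316 from limma). RpL35A went from 1773, 1588 and 455 to 1117, 1225 and 1134, 0.27 (standard error 0.59, adjusted p = 0.779 from limma). The Ho16 libraries of both genes lay on both sides of the Ho17 libraries. On the deposited scale RpS18 was the only member with every Ho17 library below every Ho16 library (13.5% of tested genes did), at -0.94 (standard error 0.45, adjusted p = 0.142 from limma), and none lay above (22%).

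The stage change was also compared between genotypes. 0 of 60 members passed the threshold for a difference of the stage change between Ho and WT (0% of all tested genes) or between He and WT (0%), and 0 had an unadjusted p under 0.05 (4.19% and 0.527%); limma on log2 reads and with precision weights gave 0 as well. The median of this difference was -0.38 for Ho (3 higher, 57 lower), 0.22 without Ho16a and -0.98 without Ho16c, and 0.24 for He (55 higher, 5 lower). For He it was -0.039 without WT17c, -0.023 without He16c and 0.55 without He16ab. The extremes for Ho were -1.24 (standard error 1.14, adjusted p = 0.984 from limma) for RpS12 and 0.26 (standard error 0.93, adjusted p = 0.991 from limma) for RpL35A, and for He -0.53 (standard error 1.51, adjusted p = 1 from limma) for RpL38 and 0.63 (standard error 1.01, adjusted p = 1 from limma) for RpL35A.

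Some members have a second gene copy in the annotation, and the copies were read at very different levels. RpS14a and RpS14b, neighbours on the X chromosome that encode the same protein, were at a median of 999 and 530.2 CPM, and reads of near-identical copies may be divided between them by the authors' counting. RpS5b, the germline-enriched copy of RpS5a, was at 126 and 109 CPM in WT16, 358 and 66.3 in He16 and 499.5, 164 and 49.2 in Ho16, and at 77.5 and 52.3, 217 and 69.6 and 63.6, 43.3 and 64.5 at stage 17, against 1014 to 2741 for RpS5a. Within He, the ab libraries exceeded the c libraries in RpS5b at both stages. RpL24-like, which acts in large-subunit assembly, was at a median of 162 CPM against 1308 for RpL24. The testis-enriched RpL22-like had 0 to 79 reads per library (at most 4.11 CPM) against 1495 CPM for RpL22, and RpL10Aa had 0 reads in every library, which allows up to 0.630 CPM in the shallowest, against 1349 CPM for RpL10Ab. The gonadal copies RpS19b and RpS10a stayed at or below 1.86 and 4.41 CPM. These are counts per gene, not per length.

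The wider translation machinery was counted in the same comparisons at the same threshold. 0 genes passed in either direction among the 19 further cytoplasmic ribosomal protein genes, the 11 tested second copies, the 73 mitochondrial ribosomal protein genes, the 7 elongation factor genes, the 38 tested initiation factor genes, the 18 genes of ribosome biogenesis and RNA polymerase I, the 3 genes of the Myc network and the 69 tested respiratory chain genes, in any of the 11 comparisons. The further cytoplasmic ribosomal protein genes had medians close to those of the members, 0.42 in Ho16 against WT16 and -0.11 in Ho17 against WT17. The mitochondrial ribosomal protein genes had medians of 0.63 (65 higher, 8 lower) and -0.36 (12 higher, 61 lower) in these comparisons. The genes of ribosome biogenesis and RNA polymerase I, among them Fib, the methyltransferase of ribosomal RNA, had medians of 0.32 (14 higher, 4 lower) and 0.46 (16 higher, 2 lower). At stage 17 they thus lay on the other side of 0 from the members' median of -0.18, with a lowest adjusted p of 0.358 from limma. The Myc network, whose activator Myc drives transcription of ribosomal protein and biogenesis genes, had a median of -1.35 in Ho16 against WT16 and 0.45 in Ho17 against WT17. Its 3 genes were split. Myc itself was the lowest in both comparisons, at -1.44 and -0.31, while the highest were Max at 0.063 and Mnt at 0.74. The transcripts of the network are long (median 3261 bases).

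Whether the counting used strand is not given in the sources used here. In a Release 6 annotation 15 of the 60 genes overlap another protein-coding gene, RpL12 and RpL39 each other, and without strand their reads cannot be told apart from those of the partner where they overlap.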

How the data were processed

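Poly-A mRNA-Seq reads were aligned by the authors with Bowtie to FlyBase r5.22, counted per gene and normalised with DESeq; versions are not given in the sources used here. The deposited values are variance-stabilized and lie on a log2-like scale, not counts. The letters of the libraries name pools of different experiments, and p-values measure the spread between these libraries.

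Whole reads were recovered from the steps of the deposited log2 values: 99.98% of 158533 values lay within 0.05 of a whole read. Genes with at least 10 reads (at median depth) in 2 libraries and 15 in all were kept, 11584 in all. The deposited values were fitted in R 4.3.3 with limma 3.58.1, using a separate mean for each condition over all 14 libraries, trended empirical Bayes moderation and Benjamini-Hochberg adjustment over all tested genes within each of 11 comparisons. Recovery and fit were tested on simulated data without library differences by transcript length, so that test does not cover the spread of the Ho16 libraries. CPM used the recovered totals. A count of 0 allows 3 reads. Python 3.11.15, numpy 2.4.6, pandas 2.3.3 and scipy 1.17.1 were used. Transcript lengths (BDGP6.54) were matched for 11481 of the tested genes, and no coordinates are given since the builds differ.

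Members and gene lists were chosen with earlier results of these data known. Named genes were the extremes of each comparison, of level per length, of transcript length and of the difference between the Ho16 libraries, members with a second copy, and salm and salr. Results of some members that this rule names are not reported here. Alternatives were no filter, only the compared conditions, library c against the others as a block, removal of a length trend and centring on all genes. Further ones were log2 reads with a pseudocount of 1, precision weights, an adjusted p of 0.05 and each library left out. For the share of reads, a total without the 10 most abundant other genes was used. Scaling by total reads and leaving out Ho16a and Ho16c together were added after the data were seen.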

Additional observations from a re-analysis of the deposited data

How the results depend on the processing

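The count of members past an adjusted p of 0.001 was 0 in all 11 comparisons under every alternative, and 0 at an adjusted p of 0.05 in the fit as reported; the lowest adjusted p over the members under any alternative was 0.00416 (limma, Ho17 against Ho16 without Ho16c). Leaving out 1 library each, the members' median ran from -0.30 to 0.90 in Ho16 against WT16, -0.053 to 1.07 in Ho16 against He16, -0.91 to 0.31 in Ho17 against Ho16, -0.18 to 0.39 in WT17 against WT16 and -0.39 to 0.12 in Ho17 against WT17. Where a WT or He library is left out, ab and c are no longer balanced, and most members were lower in c. Such shifts therefore hold the difference between ab and c. With a length trend removed, 4 members had an adjusted p under 0.05 in Ho17 against Ho16 (lowest 0.0109, limma, RpS18), where 30.6% of all tested genes did.

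The letters of the libraries were not taken to pair them across all conditions, since the deviations of the c libraries correlated over all genes by 0.021 to 0.34 in 15 pairs of conditions, not all above 0.1. Among the 6 pairs of WT and He conditions they did so by 0.15 to 0.34, so there the letters may mark a shared experiment. With library c against the others as a replicate block, 0 members were called in each comparison. This block joins experiments a and b and assumes the same offset of c in every condition. The median was then 0.21 in Ho16 against WT16, 0.42 in Ho16 against He16, -0.27 in Ho17 against WT17 and -0.27 in Ho17 against He17.

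Single members turned sign in some settings, in no case past the threshold, and the cause was not tested. RpL28 in Ho16 against He16 was 0.037 when centred on all genes, 0.00881 with precision weights and 0.17 without Ho16a and Ho16c, and RpL35A in Ho17 against Ho16 was -0.092 without both. Without single libraries, RpS3A in He16 against WT16 ran from -0.00771 to 0.17, RpL12 in Ho16 against WT16 from -0.65 to 0.23, RpL28 in Ho16 against He16 from -0.45 to 0.44, RpL38 in He17 against WT17 from -1.49 to 0.58 and in He17 against He16 from -1.38 to 0.53, RpL35A in He17 against WT17 from -0.26 to 0.92 and in Ho17 against Ho16 from -0.46 to 0.82, and sta in WT17 against WT16 from -0.62 to 0.26. With the 10 most abundant other genes left out of the total, the share of reads was 28.8% in Ho16a, 6.74% in Ho16c and 9.59% to 10.5% in Ho17, and the order of these libraries was kept. Depth does not limit the members, whose lowest value rests on 1127 reads; the spread between libraries of a condition does.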

Other observations

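The members that went against the others between the ab and c libraries include genes that lie in or near heterochromatin. RpL38 (2R), RpL5 (2L) and RpL15 (3L) lie in pericentric heterochromatin and RpS3A on chromosome 4. Their log2 ratios of c over ab in WT17 were 1.77, 0.44, 0.56 and 0.91, where the median of the 60 genes was -0.39, and in He17 they were 1.44, 0.043, -0.29 and -0.10 against a median of -0.41. In WT16 they were 0.77, 0.12, -0.11 and 0.15 against -0.43, and in He16 1.41, -0.27, -0.25 and 0.15 against -0.63. All 4 genes thus lay above the members' median in each condition. Outside this group, RpLP2 was higher in c in all 4 conditions and RpL39 in 2. RpL15 was higher in c in only 1 condition, as were RpL23, RpL37A, RpLP1, RpS14a, RpS25 and RpS27A. The 4 genes were grouped after their values were seen, and the relation was not tested.

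In Ho16a, RpL22, RpL28 and RpS20 had the smallest ratios among the members, at 1.02-fold, 1.08-fold and 1.09-fold of the median of the WT16 and He16 libraries, and RpL24, RpL8 and RpLP2 the largest, at 4.97-fold, 4.74-fold and 4.71-fold. Their transcripts have 1100, 653 and 564 bases against 829, 1086 and 604 bases. Over all 60 members, Spearman's rho between length and the ratio to the WT16 and He16 libraries was -0.15 for Ho16a and 0.26 for Ho16c. These 6 genes were picked by their values, and the relation to length was not tested.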
